A study of Homo sapiens with 9 samples.

Results

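The 42 genes described here encode ribosome biogenesis factors, the proteins that make and modify ribosomal RNA and assemble it into ribosomal subunits in the nucleolus. Members were the rows of the deposited table whose gene symbol equals 1 of 42 listed symbols, and all 42 were found among 23621 gene rows. The cells were MOLT4, a human cell line from T-cell acute lymphoblastic leukemia, in RPMI medium with 10% fetal bovine serum. PolyA RNA was sequenced after 6 h in 3 groups of 3 libraries: libraries titled MI-389, libraries titled sunitinib and vehicle (0.1% DMSO). Sunitinib is a kinase inhibitor, and the series design calls MI-389 a phthalimide conjugate; conjugates of this kind bring proteins to the cereblon ubiquitin ligase, and the series title names the translation termination factor GSPT1 as an off-target of such compounds. The comparisons ask how these factors changed with each treatment relative to vehicle, and how the treatments differed.

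Title and source field disagree for the treated libraries. The source field of the libraries titled MI-389 gives sunitinib at 1 µM, and that of the libraries titled sunitinib gives MI-389 at 0.1 µM. Groups follow the titles, which the table's column names share. If the source field is right, each statement on one compound belongs to the other. Doses stand only in that field and differ, so a difference between the treated groups is one of compound and dose together.

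Ribosomal RNA is transcribed by RNA polymerase I as a long precursor. Box C/D particles methylate it and box H/ACA particles convert uridines to pseudouridine, each guided by a small nucleolar RNA, while assembly factors fold, cleave and package it into the small and the large subunit. MYC is a known activator of many of these genes, and proliferating leukemia cells depend on a high rate of ribosome production.

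In the libraries titled sunitinib, all 42 members had a lower fitted level than in DMSO. The median of all tested genes was below 0 as well, at −0.095 against −0.34 for the members. The share of all genes below 0 was not counted. Past the test, 33 members fell (78.6%, against 16.9% of all tested genes) and none rose (all genes 2.37%). In the libraries titled MI-389 the members split: 7 of 12 small subunit factors rose and none fell, while 5 of 13 large subunit factors and 3 of 4 box H/ACA proteins fell. There 28.5% of all tested genes rose and 28.3% fell. In a wider list of other ribosome biogenesis genes, 28 of 54 large subunit factors rose in the same libraries and 3 fell, unlike the members of that role. Of its 45 small subunit factors, 19 rose and 7 fell. In the direct comparison of the treated groups, all 12 small subunit factors were higher in the libraries titled MI-389. So were 29 of all 42 members and 36% of all tested genes. The wider list was not particular to that role: 32 of 45 small subunit and 41 of 54 large subunit factors were higher.

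Values are the authors' FPKM (fragments per kilobase of transcript, scaled to the fragments of the library), deposited as normalized values. All 42 members exceeded the mean of 1 FPKM over the 9 libraries required for testing, with means of 15.3 FPKM for POLR1B to 3088 FPKM for NPM1. Read totals are unknown, because the table holds FPKM only. Steps of values above the floor of the table were larger in DMSO by a median factor of 1.4 than in the libraries titled MI-389 (65 genes). The factor was 1.33 for those titled sunitinib (69 genes). These factors equal relative depth only if no other scaling between libraries enters, and that scaling is not given. T-lineage markers checked the labelled cell type: all 12 had a mean above 1 FPKM, and their sum was 3339 to 3553 FPKM in the libraries titled MI-389, 3683 to 3807 FPKM in those titled sunitinib and 3355 to 4144 FPKM in DMSO. Of 5 B cell markers only CD79A passed 1 FPKM, with a summed level of 8.49 to 9.43 FPKM in the libraries titled MI-389, 7.08 to 7.97 FPKM in those titled sunitinib and 9.22 to 10.2 FPKM in DMSO, lower in the libraries titled sunitinib; its part in the results was not tested. MS4A1, PAX5 and CD22 lay at the floor of about 0.1 FPKM. The 5 myeloid markers summed to 0.941 to 1.04 FPKM in the libraries titled MI-389, 0.873 to 1.15 FPKM in those titled sunitinib and 0.926 to 1.08 FPKM in DMSO. The 6 epithelial and fibroblast markers summed to 1.03 to 1.1 FPKM in the libraries titled MI-389, 0.791 to 1.04 FPKM in those titled sunitinib and 0.955 to 1.04 FPKM in DMSO, and CDH1, COL3A1 and MPO lay near the floor.

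For the members, DMSO replicate 1 stood apart from the other controls. It held the lowest DMSO value of 39 of the 42 members, and the median member lay at 6.66 on the log2(FPKM + 1) scale there against 6.89 and 6.95 in DMSO replicates 2 and 3. It stood at 6.88, 6.82 and 6.88 in the libraries titled MI-389 and 6.49, 6.45 and 6.43 in those titled sunitinib. The median coefficient of variation of a member was 3.39% and 2.41% in the MI-389 and the sunitinib group, and 9.28% in DMSO. Counts are therefore also given without DMSO replicate 1. Replicate 2 of the group titled MI-389 likewise held the lowest value of its group for 39 of the 42 members, within the smaller spread of that group. Over all tested genes, the median on the same scale was 4.59, 4.63 and 4.76 in DMSO replicates 1, 2 and 3. Nothing in the labels ties the replicates to separate cultures; the p-values therefore reflect only the spread among these libraries, which may be technical. In bulk RNA, fewer cells that express a gene and less of its RNA per cell cannot be told apart.

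**Figure D1:**
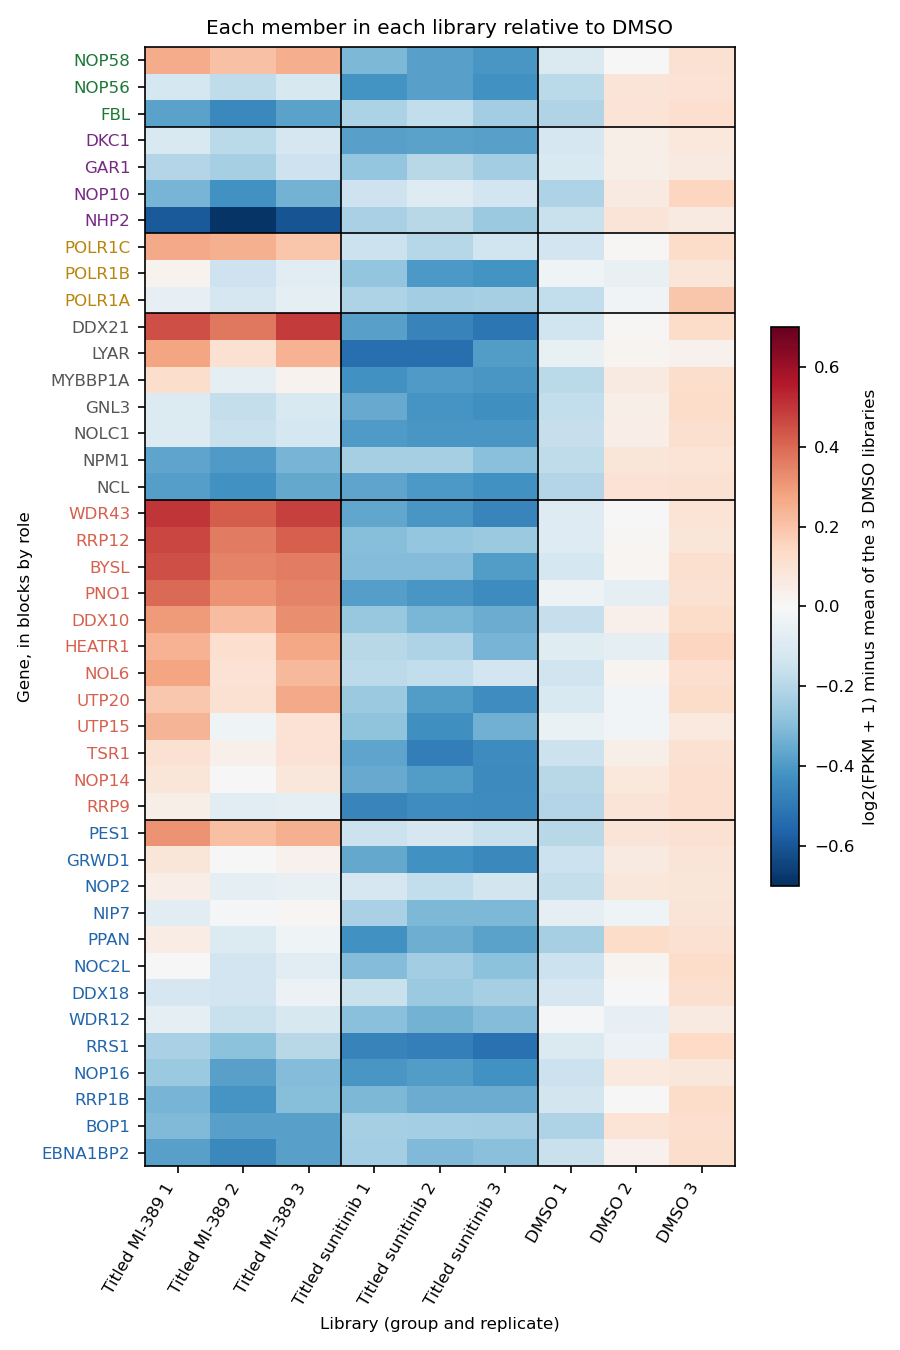
Heat map of log2(FPKM + 1) minus the mean of the 3 DMSO libraries, with 1 row per member in blocks by role and 1 column per library. The columns titled sunitinib are below 0 throughout, 12 of 12 small subunit rows are higher in the columns titled MI-389 than in those titled sunitinib, and DMSO replicate 1 is the lowest control for 39 of 42 members.

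Tests were made with limma on log2(FPKM + 1) over 12301 genes, with Benjamini-Hochberg adjustment and a threshold of 0.05; log2 differences below are on that scale and fold values are ratios of mean FPKM. In the MI-389 group against DMSO, 12 of the 42 members rose (28.6%, against 28.5% of all tested genes) and 11 fell (26.2%, against 28.3% of all tested genes). Both shares are near those of all genes in the values as deposited. Quantile normalization gave 20 members higher (47.6%, all genes 30.2%) and 12 lower (28.6%, all genes 35.7%), and cyclic loess 21 higher (50%, all genes 33.3%) and 9 lower (21.4%, all genes 32.4%). Median centring gave 12 higher (28.6%, all genes 26.2%) and 20 lower (47.6%, all genes 40.3%). Rescaling to the ERCC spike-in RNAs, added in proportion to cells, gave 12 higher (28.6%, all genes 28.1%) and 12 lower (28.6%, all genes 27.8%). Whether the deposited values were already scaled to these RNAs is not known. If they were, this setting could change little. The groups of libraries did not overlap for 10 members on the higher side (all genes 30.5%) and 12 on the lower side (all genes 29.7%). The median member differed by −0.030, against −0.0021 over all tested genes; it turned positive under quantile normalization (0.069) and cyclic loess (0.084), and lay between −0.11 without DMSO replicate 1 and 0.021 without DMSO replicate 3. Without DMSO replicate 1, 10 members rose (23.8%, all genes 25.8%) and 19 fell (45.2%, all genes 33.2%).

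Small subunit factors made up most of the rises. This group acts on the early precursor in the small subunit processome and on later maturation; its median difference was 0.21, and under every alternative setting the median stayed above 0. WDR43, a subunit of the processome that also supports transcription of ribosomal RNA, had 135, 128 and 132 FPKM in the libraries titled MI-389, against 88.95, 94.6 and 102 FPKM in DMSO. Its groups did not overlap, and it rose 1.39-fold (log2 difference 0.47, SE 0.058, adjusted p = 0.000114). RRP12, needed for maturation and export of pre-ribosomes in yeast, had 58.3, 54.3 and 56.4 FPKM in the libraries titled MI-389, against 39.2, 42.2 and 44.5 FPKM in DMSO (log2 difference 0.42, SE 0.056, adjusted p = 0.000181). BYSL, which is required for processing of the small subunit RNA, had 112, 105 and 106 FPKM in the libraries titled MI-389, against 75.1, 82.8 and 88.7 FPKM in DMSO (log2 difference 0.39, SE 0.066, adjusted p = 0.000814). Every library titled MI-389 lay above every DMSO library for these genes. PNO1, an RNA-binding factor of late small subunit precursors, had 78.1, 73.9 and 75.5 FPKM in the libraries titled MI-389, against 57.6, 56.4 and 63.6 FPKM in DMSO (log2 difference 0.35, SE 0.056, adjusted p = 0.000486). DDX10, a helicase whose yeast relative releases a guide RNA from the precursor, had 55.7, 52.7 and 56.9 FPKM in the libraries titled MI-389, against 40.2, 46.4 and 49.4 FPKM in DMSO (log2 difference 0.28, SE 0.073, adjusted p = 0.00874). Their groups did not overlap either.

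HEATR1, a large scaffold protein of the processome, and NOL6, another processome subunit, rose by smaller amounts. HEATR1 had 32.6, 29.8 and 33.1 FPKM in the libraries titled MI-389, against 25.7, 26.1 and 30.4 FPKM in DMSO (log2 difference 0.21, SE 0.075, adjusted p = 0.0352). NOL6 had 65.5, 57.9 and 63.4 FPKM in the libraries titled MI-389, against 48.9, 54.7 and 58.5 FPKM in DMSO (log2 difference 0.20, SE 0.072, adjusted p = 0.0357). For both genes 1 library titled MI-389 lay below DMSO replicate 3, and both calls were lost without a filter on low values, with the 6 compared libraries alone and without DMSO replicate 1 or 2, among other libraries. The other 5 small subunit factors did not pass: the processome subunits UTP20 (0.19, adjusted p = 0.062), UTP15 (0.10, adjusted p = 0.261), NOP14 (0.054, adjusted p = 0.574) and RRP9 (−0.033, adjusted p = 0.747), and TSR1, a late factor that resembles a GTPase (0.081, adjusted p = 0.339). NOP14, the most abundant gene of this role, had 118, 112 and 118 FPKM in the libraries titled MI-389, against 97.6, 118 and 121 FPKM in DMSO, and its groups overlapped. Without DMSO replicate 1, 5 factors of this role rose (all genes 25.8%) and 1 fell (all genes 33.2%).

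Of the large subunit factors, 5 fell (all genes 28.3%), 1 rose (all genes 28.5%) and 7 did not pass. Their median of −0.098 turned to 0.0053 under quantile normalization (5 lower, 3 higher) and to 0.036 under cyclic loess (5 lower, 4 higher). EBNA1BP2, whose yeast relative acts in large subunit assembly, had 183, 174 and 183 FPKM in the libraries titled MI-389, against 214, 244 and 259.8 FPKM in DMSO (log2 difference −0.40, SE 0.070, adjusted p = 0.000855). BOP1 and the nucleolar assembly factors RRP1B, NOP16 and RRS1 also fell, with log2 differences of −0.36, −0.35, −0.31 and −0.24. The PeBoW complex, which is needed to process the large subunit RNA, did not move as a unit. Its subunit PES1 had 139, 129 and 132 FPKM in the libraries titled MI-389, against 96.9, 118 and 119.7 FPKM in DMSO and rose (log2 difference 0.26, SE 0.078, adjusted p = 0.0171), BOP1 fell 1.29-fold (adjusted p = 0.0044), and WDR12 differed by −0.11 (adjusted p = 0.0768). The call of PES1 was lost without replicate 1 of the group titled MI-389. GRWD1, a histone and ribosomal protein chaperone, NOP2, an RNA methyltransferase, DDX18, a helicase, and the assembly factors NIP7, PPAN and NOC2L had differences between −0.098 and 0.037 and did not pass. GRWD1 and NOP2 passed as higher under quantile normalization and cyclic loess, and NOC2L under cyclic loess. DDX18 and NOC2L passed as lower under median centring and without DMSO replicate 1. Without DMSO replicate 1, 8 large subunit factors fell (all genes 33.2%) and 1 rose (all genes 25.8%).

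Proteins of the small nucleolar particles fell in 4 of 7 cases, against 28.3% of all tested genes. NHP2, a core protein of box H/ACA particles that is also part of telomerase, showed the largest fall of any member. It had 366, 341 and 362 FPKM in the libraries titled MI-389, against 494, 586 and 576 FPKM in DMSO, with no overlap, and was 1.55-fold lower (log2 difference −0.63, SE 0.070, adjusted p = 5.66e-05). NOP10, the smallest core protein of the same particle and its most abundant transcript here, had 414, 387 and 412 FPKM in the libraries titled MI-389, against 447, 543 and 578 FPKM in DMSO (log2 difference −0.36, SE 0.087, adjusted p = 0.00551). GAR1 fell by 0.20 (adjusted p = 0.0162), and DKC1, the pseudouridine synthase itself, differed by −0.14 (adjusted p = 0.0666). Under quantile normalization NHP2 and NOP10 fell and DKC1 rose, and under cyclic loess NHP2 fell and DKC1 rose; GAR1 had no call in either. DKC1 passed as lower under median centring (−0.22), spike-in rescaling (−0.13) and without DMSO replicate 1 (−0.20). The call of GAR1 was also lost without DMSO replicate 2 or without replicate 1 or 2 of the group titled MI-389.

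The box C/D particle split among its core proteins. FBL, the methyltransferase fibrillarin, had 627, 594 and 626 FPKM in the libraries titled MI-389, against 701, 867 and 879.8 FPKM in DMSO and fell (log2 difference −0.40, SE 0.084, adjusted p = 0.00271). NOP58, a scaffold protein of the particle, had 339, 327 and 339 FPKM in the libraries titled MI-389, against 264, 283 and 305 FPKM in DMSO and rose (log2 difference 0.24, SE 0.061, adjusted p = 0.00722). NOP56, its paralog in the same particle, had 745, 719 and 752 FPKM in the libraries titled MI-389, against 713, 865 and 872 FPKM in DMSO and did not pass (log2 difference −0.14, SE 0.077, adjusted p = 0.153, 95% interval −0.31 to 0.034). NOP56 passed as higher under quantile normalization (0.11) and cyclic loess (0.18), and as lower under median centring (−0.22) and without DMSO replicate 1 (−0.23).

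Among other nucleolar proteins, NCL and NPM1 fell and DDX21 and LYAR rose. NPM1, the nucleolar chaperone nucleophosmin, was the most abundant member and had 2734, 2688 and 2824 FPKM in the libraries titled MI-389, against 3120.1, 3746 and 3779.6 FPKM in DMSO (log2 difference −0.36, SE 0.081, adjusted p = 0.00371). NCL, nucleolin, had 1224, 1191 and 1246 FPKM in the libraries titled MI-389, against 1384, 1713 and 1721 FPKM in DMSO (log2 difference −0.39, SE 0.084, adjusted p = 0.00308). Both were below every DMSO library, but the calls of both were lost after cyclic loess, where NPM1 stood at 0.043. DDX21, a nucleolar helicase that also acts at genes of RNA polymerase II, had 215, 203 and 221 FPKM in the libraries titled MI-389, against 143, 158 and 172 FPKM in DMSO and rose 1.35-fold (log2 difference 0.44, SE 0.073, adjusted p = 0.000684). LYAR, a nucleolar zinc finger protein, had 98.2, 87.0 and 95.8 FPKM in the libraries titled MI-389, against 78.0, 82.0 and 82.8 FPKM in DMSO (log2 difference 0.21, SE 0.063, adjusted p = 0.0176). The call of LYAR was lost without replicate 1 or 3 of the group titled MI-389. GNL3, the GTPase nucleostemin, NOLC1, a chaperone of small nucleolar particles, and MYBBP1A, a nucleolar regulator of transcription, differed by −0.12, −0.12 and 0.027 and did not pass. GNL3 and NOLC1 passed as higher under quantile normalization (0.094 and 0.096) and cyclic loess (0.12 for both). They passed as lower under median centring and without DMSO replicate 1.

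Of the polymerase subunits, POLR1C, which RNA polymerases I and III share, had 94.5, 93.2 and 89.7 FPKM in the libraries titled MI-389, against 71.2, 78.7 and 85.8 FPKM in DMSO and rose (log2 difference 0.24, SE 0.066, adjusted p = 0.0124). POLR1A and POLR1B, which form the catalytic core of RNA polymerase I, did not pass, at −0.080 and −0.068; both passed as lower after median centring, quantile normalization and cyclic loess. Across roles, 8 of the 12 rises and 7 of the 11 falls were called under every alternative setting and with each library left out.

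**Figure D2:**
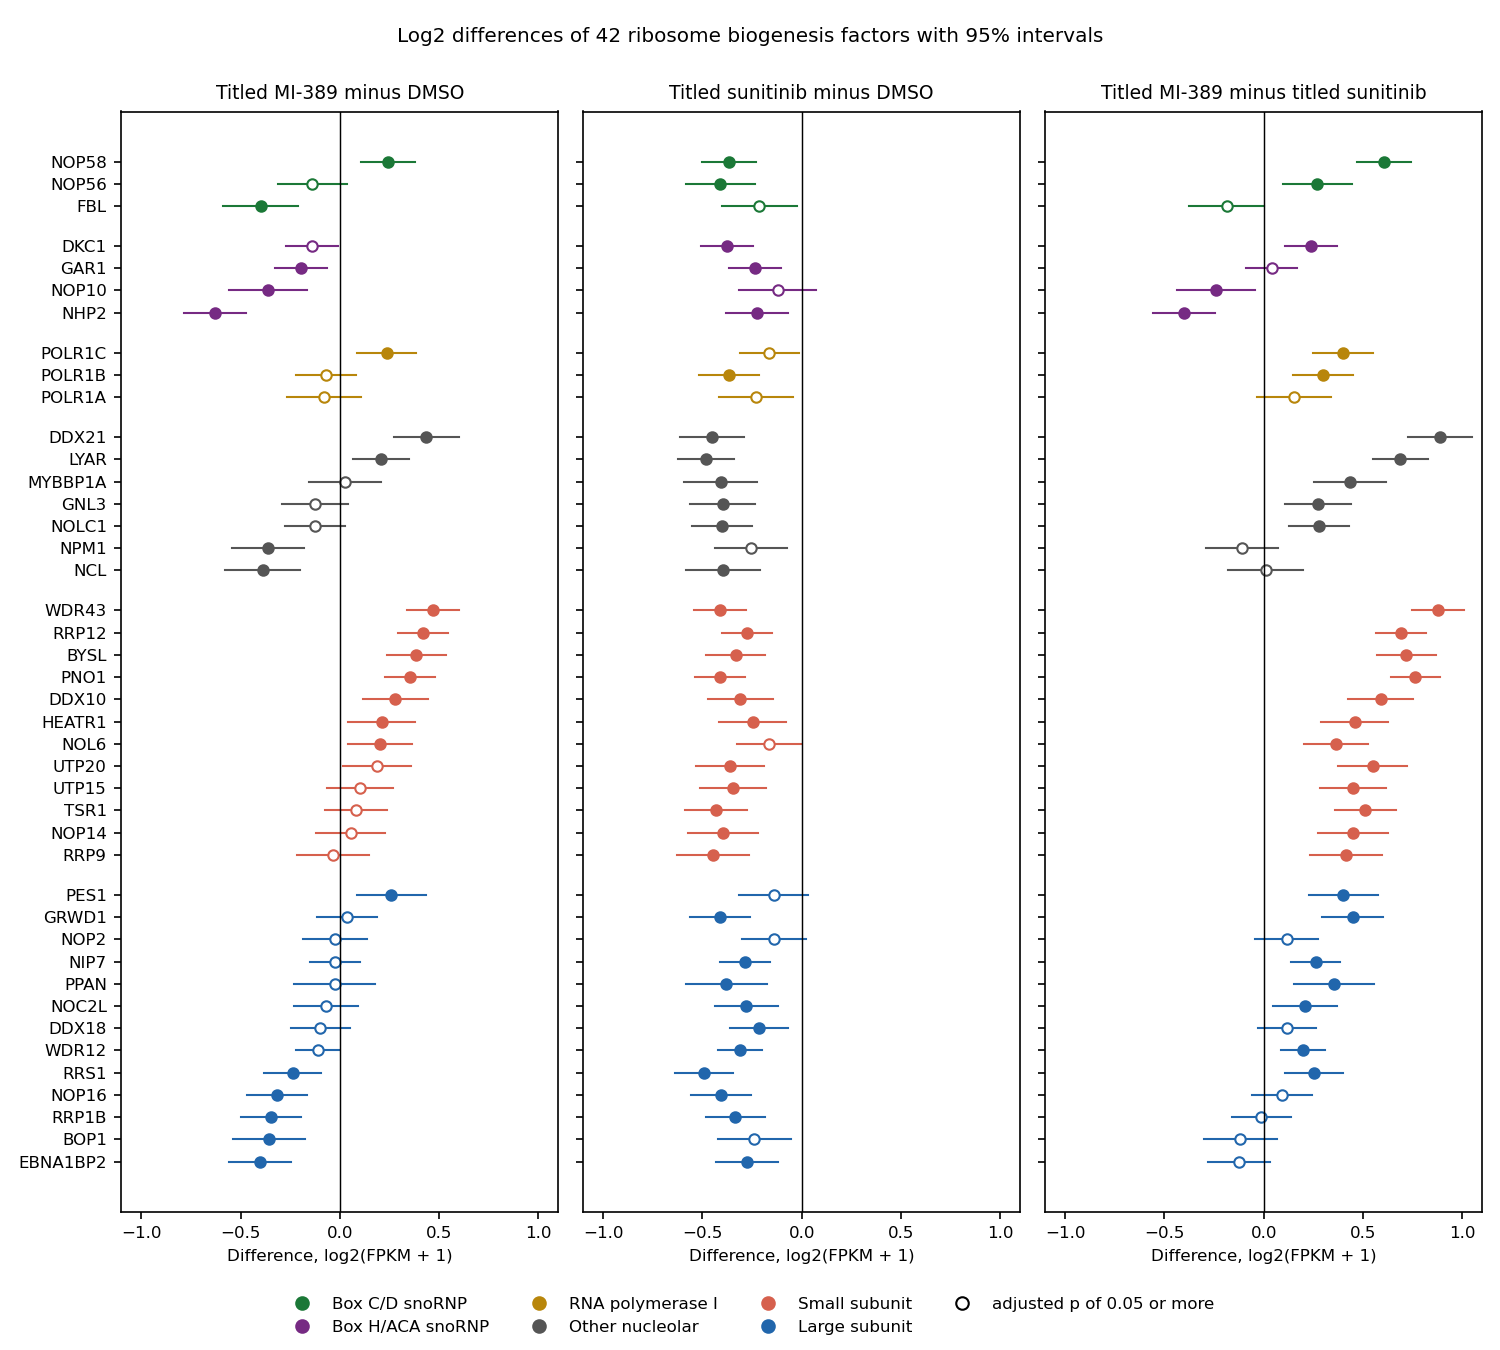
Fitted log2 difference of each member (point) with its 95% interval (line) in the 3 comparisons, in blocks by role; filled points have an adjusted p below 0.05 by limma. In the middle panel all 42 points lie below 0, where the median of all tested genes is −0.095. In the left panel 7 of 12 small subunit factors are called higher (all genes 28.5%) and 5 of 13 large subunit factors lower (all genes 28.3%). In the right panel all 12 small subunit factors are called higher (all genes 36%).

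Level and transcript length moved with the direction in the libraries titled MI-389. The 11 members that fell had a median level of 205 FPKM over the 9 libraries, from 96.7 to 3088, and the 12 that rose one of 78.9 FPKM, from 27.4 to 279. Their coding transcripts in GENCODE release 29 had a median length of 1503 bases for the falls, 2779.5 bases for the rises and 3687 bases for the 19 members without a call. All genes shared these trends. The median difference of all tested genes was 0.066, 0.089 and −0.14 in the lowest, middle and highest tertile of level, and −0.11, −0.0040 and 0.085 from the shortest to the longest tertile of length (11096 genes with a length). The part of level and length in the split was not tested. Of the 42 members, 36 lay in the highest tertile of level, where the median member differed by −0.051.

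**Figure D3:**
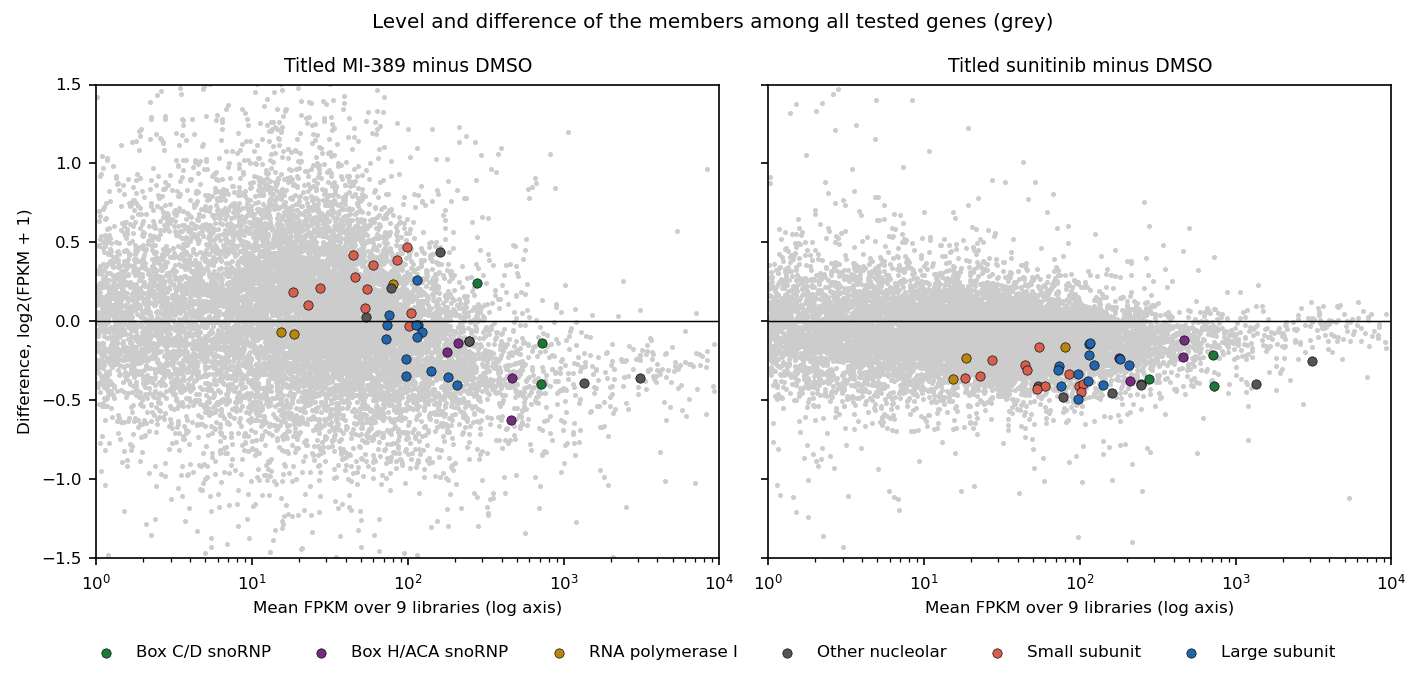
Fitted log2 difference from DMSO against the mean FPKM over 9 libraries (log axis) for the libraries titled MI-389 (left) and titled sunitinib (right); grey points are the tested genes within the axes and coloured points the 42 members. The 42 members lie on both sides of 0 in the left panel and below 0 in the right panel. For all tested genes the median in the right panel is −0.095. The most abundant members, NPM1 and NCL, lie below 0 in both, but NPM1 turned above 0 in the left comparison after cyclic loess.

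Against DMSO, the libraries titled sunitinib had 33 of 42 members lower (78.6%, against 16.9% of all tested genes) and none higher (all genes 2.37%), by limma. At an unadjusted p below 0.05 the count of higher members was also 0, as it had to be with all 42 fitted differences below 0. For 37 members every library titled sunitinib lay below every DMSO library, where 29.3% of all genes did so; for none did every library lie above, where 5.89% of all genes did so. The median member differed by −0.34, against −0.095 for all tested genes. Centring each library on its median gave a member median of −0.26 and 32 lower. Quantile normalization gave −0.21 and cyclic loess −0.22, with 35 lower in either case, and none was higher under any of these. Of all genes, these scalings in turn called 15.2%, 16.1% and 15.9% lower and 10.3%, 13.8% and 15.1% higher. Rescaling to the spike-in RNAs gave 33 members lower (78.6%, all genes 15.9%) and 0 higher (all genes 2.16%). It may repeat the deposited scaling, which is not known. All 42 were called lower without DMSO replicate 1, where 32.2% of all genes were. Leaving out sunitinib replicate 2 or 3 gave 22 members (52.4%, all genes 6.68%) or 23 (54.8%, all genes 7.27%), and any other library 25 to 30 (all genes 9.76% to 14.8%). With libraries left out, the share of all genes called lower changed in the same direction as that of the members. Under quantile normalization and cyclic loess it did not: more members were lower than in the main fit, and fewer of all genes.

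Every role had a median below 0 in this comparison, and under every alternative setting. Medians were −0.36 for small subunit factors (11 of 12 lower), −0.29 for large subunit factors (10 of 13), −0.40 for the other nucleolar proteins (6 of 7), −0.37 for box C/D proteins (2 of 3), −0.23 for box H/ACA proteins (3 of 4) and −0.23 for polymerase subunits (1 of 3). RRS1, which helps to place a ribosomal RNA particle in the large subunit, had the largest fall. It stood at 81.7, 81.3 and 78.6 FPKM in the libraries titled sunitinib, against 106, 111 and 125 FPKM in DMSO, 1.41-fold lower (log2 difference −0.49, SE 0.065, adjusted p = 0.00258). LYAR had 55.9, 55.7 and 61.5 FPKM in the libraries titled sunitinib, against 78.0, 82.0 and 82.8 FPKM in DMSO (log2 difference −0.48, SE 0.063, adjusted p = 0.00236). DDX21 had 121, 113 and 110.2 FPKM in the libraries titled sunitinib, against 143, 158 and 172 FPKM in DMSO (log2 difference −0.45, SE 0.073, adjusted p = 0.00492). In these genes every library titled sunitinib lay below every DMSO library. RRP9, a protein of the particle that guides early cleavage of the precursor, had 81.5, 83.2 and 82.7 FPKM in the libraries titled sunitinib, against 97.8, 119.9 and 122 FPKM in DMSO (log2 difference −0.45, SE 0.081, adjusted p = 0.00749). Its groups did not overlap either. In the libraries titled MI-389, RRP9 stood at 116, 107 and 108 FPKM, within the DMSO range.

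The most abundant members of each role were lower as well, though not all past the test. NPM1 had 3005, 3012 and 2882 FPKM in the libraries titled sunitinib, against 3120.1, 3746 and 3779.6 FPKM in DMSO and missed the threshold (log2 difference −0.25, SE 0.081, adjusted p = 0.0547), which it passed under quantile normalization, cyclic loess and 3 other settings. NOP56 had 607, 623 and 605 FPKM in the libraries titled sunitinib, against 713, 865 and 872 FPKM in DMSO (log2 difference −0.41, SE 0.077, adjusted p = 0.00853). NOP10 had 469, 489 and 474 FPKM in the libraries titled sunitinib, against 447, 543 and 578 FPKM in DMSO, its groups overlapped, and it did not pass (log2 difference −0.12, SE 0.087, adjusted p = 0.352, 95% interval −0.32 to 0.072). The values of NOP10 in the libraries titled sunitinib lay within the DMSO range, and after cyclic loess its difference was 0.0091. NOP14 had 87.1, 84.9 and 81.7 FPKM in the libraries titled sunitinib, against 97.6, 118 and 121 FPKM in DMSO (log2 difference −0.40, SE 0.078, adjusted p = 0.0101). EBNA1BP2 had 202, 193 and 195 FPKM in the libraries titled sunitinib, against 214, 244 and 259.8 FPKM in DMSO (log2 difference −0.28, SE 0.070, adjusted p = 0.0237), a call lost when any of 4 libraries was left out. POLR1C had 70.5, 68.0 and 71.0 FPKM in the libraries titled sunitinib, against 71.2, 78.7 and 85.8 FPKM in DMSO and did not pass (log2 difference −0.16, SE 0.066, adjusted p = 0.113). FBL had 695, 720.2 and 685 FPKM in the libraries titled sunitinib, against 701, 867 and 879.8 FPKM in DMSO and did not pass (log2 difference −0.21, SE 0.084, adjusted p = 0.104). These groups overlapped for FBL and not for POLR1C. The other members without a call were BOP1, POLR1A, NOL6, PES1 and NOP2, with differences between −0.24 and −0.14. Of the 33 calls, 22 were made under every alternative setting and with each library left out; NHP2, at an adjusted p of 0.0498, HEATR1 (0.047) and DDX18 (0.0464) lay closest to the threshold.

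MYC, the activator named above, stood at 442, 417 and 435 FPKM in the libraries titled MI-389, 238, 237 and 234 FPKM in those titled sunitinib and 299.7, 340.2 and 352 FPKM in DMSO. The transcript was highest in the first of these groups and lowest in the second, and its part in the members' levels was not tested.

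Promoters were searched for the E-box CACGTG, the palindromic site that MYC and related factors bind, in the 250 bases before the annotated start, on both strands at once because the site reads the same on each. RefSeq promoters (GRCh38.p14) were matched for 35 members, and NOP58, NOLC1, RRP12, BOP1, RRS1, RRP1B and DDX18 had no match. The letters were found in 3 of 35 members (8.57%), against 6.49% of all 27305 promoters of the same length and 9.4% of the 9519 promoters of tested genes. The site was found in 0 of 10 matched members that rose in the MI-389 group and in 2 of 8 that fell. The stretches that hold the letters are shown 5′ to 3′ on the gene's strand, with the E-box in capitals, for NOP10 and EBNA1BP2, which fell, and UTP20, which had no call, in those libraries.
NOP10 (chr15:34343274-34343333, - strand, bases 197 to 138 before the start): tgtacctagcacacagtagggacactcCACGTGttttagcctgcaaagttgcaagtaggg
NOP10 (chr15:34343137-34343196, - strand, bases 60 to 1 before the start): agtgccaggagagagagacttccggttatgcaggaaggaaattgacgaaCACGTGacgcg
UTP20 (chr12:101280045-101280104, + strand, bases 60 to 1 before the start): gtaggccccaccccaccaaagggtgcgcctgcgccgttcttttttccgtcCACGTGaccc
EBNA1BP2 (chr1:43172761-43172820, - strand, bases 250 to 191 before the start): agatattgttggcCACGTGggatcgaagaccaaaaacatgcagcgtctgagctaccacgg

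Against the libraries titled sunitinib, those titled MI-389 had 29 of 42 members higher (69.0%, against 36% of all tested genes) and 2 lower (4.76%, against 20.3%); 56.3% of all tested genes were called in either direction. Libraries did not overlap for 33 members on the higher side (all genes 42.5%) and 6 on the lower side (all genes 27%). The median member differed by 0.29, against 0.081 for all genes. Centring each library on its median shifted the all-gene median to −0.084 and the member median to 0.12, with 23 members higher (54.8%, all genes 26.7%) and 8 lower (19%, all genes 39.5%); the other scalings gave 29 to 35 higher and 1 to 5 lower. Of all genes, quantile normalization called 30.8% higher and 36% lower, and cyclic loess 33.1% and 32.8%. This comparison does not use the DMSO libraries for its differences, so DMSO replicate 1 enters only through the estimate of the spread; without it 32 were higher (76.2%, all genes 38.4%) and 6 lower (14.3%, all genes 23.4%).

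All 12 small subunit factors were higher, with a median of 0.53 and no overlap of libraries, and the count was 12 under every alternative setting and with each library left out. DDX21 showed the largest difference of all members, 1.86-fold (log2 difference 0.89, SE 0.073, adjusted p = 8.94e-06). WDR43 stood at 135, 128 and 132 FPKM in the libraries titled MI-389, against 73.4, 71.4 and 68.7 FPKM in those titled sunitinib, 1.85-fold higher (means 132 ± 3.63 and 71.2 ± 2.38 FPKM, SD, n = 3 each; log2 difference 0.88, SE 0.058, adjusted p = 2.76e-06). No libraries of the treated groups overlapped for DDX21 or WDR43. PNO1 stood at 78.1, 73.9 and 75.5 FPKM in the libraries titled MI-389, against 45.0, 44.3 and 43.4 FPKM in those titled sunitinib (log2 difference 0.76, SE 0.056, adjusted p = 4.5e-06). BYSL stood at 112, 105 and 106 FPKM in the libraries titled MI-389 against 66.3, 66.2 and 62.2 FPKM in the libraries titled sunitinib (log2 difference 0.72, SE 0.066, adjusted p = 1.76e-05). Neither PNO1 nor BYSL had overlapping libraries. NHP2 and NOP10 were the 2 members lower in the libraries titled MI-389. NHP2 stood at 366, 341 and 362 FPKM in the libraries titled MI-389 against 470.5, 482 and 459 FPKM in those titled sunitinib (log2 difference −0.40, SE 0.070, adjusted p = 0.00092). NOP10 stood at 414, 387 and 412 FPKM in the libraries titled MI-389 against 469, 489 and 474 FPKM in those titled sunitinib (log2 difference −0.24, SE 0.087, adjusted p = 0.0384). The call of NOP10 was lost when any library of either treated group was left out, without a filter and after cyclic loess, while that of NHP2 was not lost in any alternative setting. Large subunit factors were higher in 7 of 13 cases, the other nucleolar proteins in 5 of 7, and polymerase subunits and box C/D proteins in 2 of 3 each.

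The comparisons with DMSO share their control libraries, so their results are given side by side. Of all tested genes, 28.5% rose and 28.3% fell in the libraries titled MI-389, and 16.9% fell in those titled sunitinib. How many of all genes shared each joint pattern of calls was not counted, so whether the joint counts below are unusual cannot be said. Of the 42 members, 9 rose in the libraries titled MI-389 and fell in those titled sunitinib: NOP58, DDX21, LYAR, WDR43, HEATR1, DDX10, RRP12, BYSL and PNO1. All 9 also passed as higher in the direct comparison of the treated groups. NOP58 stood at 339, 327 and 339 FPKM in the libraries titled MI-389, 228, 218 and 214 FPKM in those titled sunitinib and 264, 283 and 305 FPKM in DMSO, 1.52-fold higher in the first group than in the second (log2 difference 0.61, SE 0.061, adjusted p = 2.89e-05). RRP12 stood at 34.0, 34.6 and 34.9 FPKM in the libraries titled sunitinib (log2 difference −0.27, SE 0.056, adjusted p = 0.011 from DMSO), and DDX10 at 37.4, 36.0 and 35.4 FPKM (log2 difference −0.31, SE 0.073, adjusted p = 0.0191 from DMSO). The treated groups of both genes lay on opposite sides of the DMSO range. HEATR1 stood at 23.7, 23.3 and 21.6 FPKM in the libraries titled sunitinib (log2 difference −0.25, SE 0.075, adjusted p = 0.047 from DMSO). The calls of DDX10 and HEATR1 in the libraries titled sunitinib were among those lost when single libraries were left out. Another 7 members fell in both treated groups, namely NHP2, GAR1, NCL, RRS1, NOP16, RRP1B and EBNA1BP2. The difference between the treated groups did not pass for 5 of these 7. NCL stood at 1238, 1210.3 and 1189 FPKM in the libraries titled sunitinib, overlapping with its values in those titled MI-389, with an interval of the difference of −0.18 to 0.20 on the log2 scale. For RRP1B that interval was −0.16 to 0.14. RRS1 was higher, at 96.8, 92.9 and 99.0 FPKM in the libraries titled MI-389 (log2 difference 0.25, SE 0.065, adjusted p = 0.00791), and NHP2 lower than in the libraries titled sunitinib. A further 17 fell in the libraries titled sunitinib and had no call in those titled MI-389, and 16 of them differed between the treated groups, all higher in the libraries titled MI-389; DDX18 was the exception (interval −0.028 to 0.27).

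**Figure D4:**
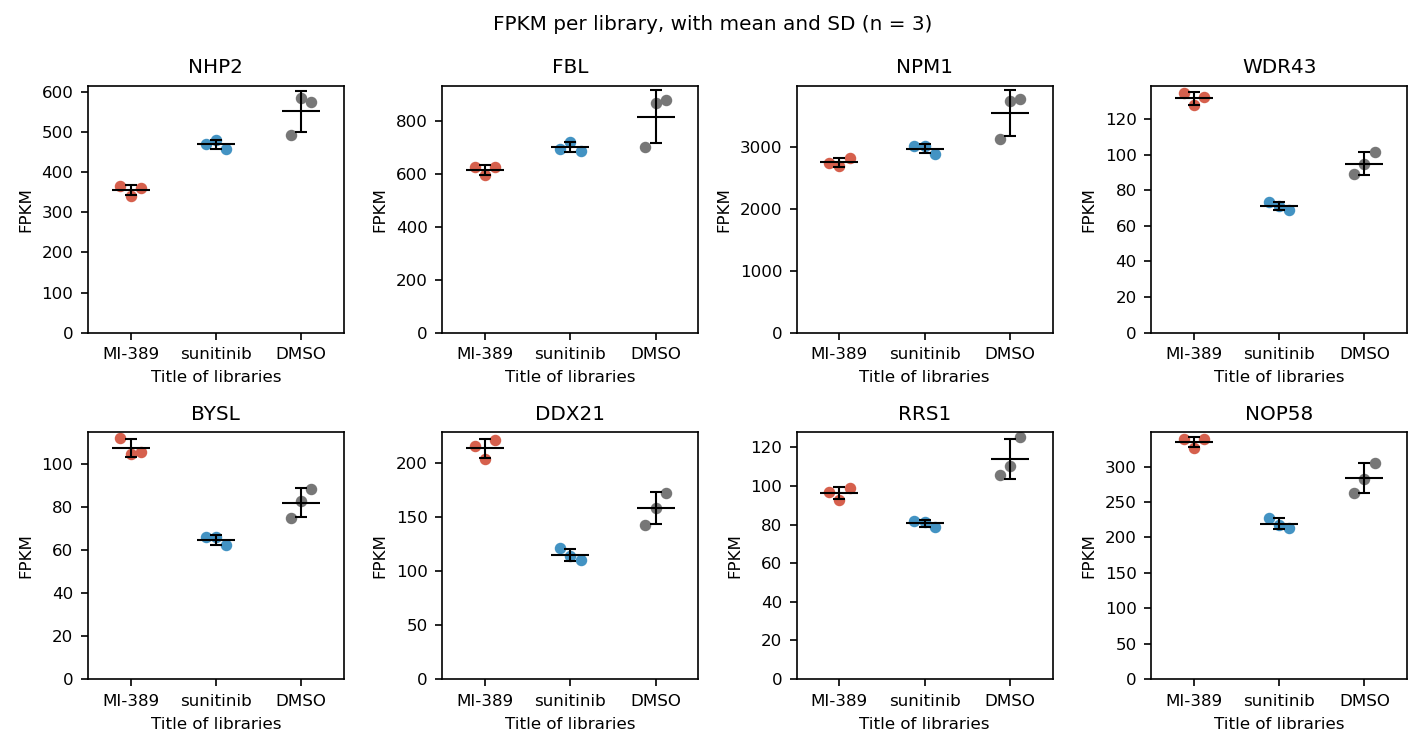
FPKM of 8 members in each library (points), with the mean and SD of each group (bars, n = 3), in libraries titled MI-389, titled sunitinib and DMSO; axes start at 0. WDR43, BYSL, DDX21 and NOP58 lie above DMSO in the libraries titled MI-389 and below it in those titled sunitinib, and NHP2 is lowest in the libraries titled MI-389.

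A wider list held 135 other ribosome biogenesis genes, chosen by role, and all 135 were tested. Against DMSO, 55 rose (40.7%, all genes 28.5%) and 22 fell (16.3%, all genes 28.3%) in the libraries titled MI-389, with a median of 0.096. In the libraries titled sunitinib 77 fell (57%, all genes 16.9%) and none rose, with a median of −0.24; at most 6 rose, after quantile normalization or cyclic loess. Against the libraries titled sunitinib, those titled MI-389 had 91 higher (67.4%, all genes 36%) and 10 lower (7.41%, all genes 20.3%). By role, 32 of 45 small subunit factors were higher and 4 lower, with a median of 0.31. Of 54 large subunit factors 41 were higher and 0 lower, with a median of 0.43. For libraries titled sunitinib against DMSO, leaving out DMSO replicate 1 gave 112 lower (83%, all genes 32.2%). Leaving out DMSO replicate 2 or 3 gave 48 (35.6%, all genes 11.5%) or 46 (34.1%, all genes 9.76%), and leaving out sunitinib replicate 2 or 3 gave 33 (24.4%, all genes 6.68%) or 35 (25.9%, all genes 7.27%). The count was 46 without a filter on low values (all genes 5.28%) and 40 with the 6 compared libraries alone (29.6%, all genes 8.75%).

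By role, the wider list gave other counts than the members in the libraries titled MI-389. All tested genes rose there in 28.5% of cases and fell in 28.3%. Its small subunit factors rose in 19 of 45 cases (42.2%) and fell in 7 (15.6%). The large subunit factors of that list rose in 28 of 54 cases (51.9%) and fell in 3 (5.56%). The members of that role had 1 rise and 5 falls of 13. Factors of particle assembly rose in 2 of 10 cases (20%) and fell in 4 (40%). Polymerase subunits and initiation factors rose in 4 of 12 (33.3%) and fell in 4 (33.3%), near the shares of all genes. Exonucleases that trim ribosomal RNA rose in 2 of 14 cases (14.3%) and fell in 4 (28.6%, near that of all genes). ZNF622, whose yeast relative acts late in large subunit maturation, stood at 72.3 ± 2.44 FPKM in the libraries titled MI-389 against 36.1 ± 1.69 FPKM in DMSO (SD, n = 3 each; log2 difference 0.98, SE 0.056, adjusted p = 1.02e-06). TAF1D, a subunit of the polymerase I initiation factor, stood at 182 ± 4.63 FPKM in the libraries titled MI-389 against 100.1 ± 7.37 FPKM in DMSO (log2 difference 0.85, SE 0.071, adjusted p = 1.02e-05). UTP23, a processome factor, rose by 0.54 (adjusted p = 1.23e-05). These were the 3 rises with the smallest adjusted p.

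The 3 falls with the smallest adjusted p in the same libraries were UTP11L, DCAF13 and IMP3, all of the small subunit processome. UTP11L stood at 52.8 ± 1.51 FPKM in the libraries titled MI-389 against 91.4 ± 2.83 FPKM in DMSO (log2 difference −0.78, SE 0.051, adjusted p = 2.62e-06). DCAF13 differed by −0.56 and IMP3 by −0.69 (adjusted p = 1.77e-05 and 3.59e-05). In the other treated group, NAF1, an assembly factor of box H/ACA particles, stood at 25.3 ± 0.493 FPKM in the libraries titled sunitinib against 40.6 ± 2.27 FPKM in DMSO (log2 difference −0.66, SE 0.061, adjusted p = 0.000584). RPF2, the partner of RRS1, fell by 0.44 (adjusted p = 0.00172). CD3EAP, a polymerase I subunit, fell by 0.63 and BRIX1, a large subunit factor, by 0.45, with the same adjusted p of 0.00236. RPF2 rose in the libraries titled MI-389 (log2 difference 0.36, SE 0.052, adjusted p = 0.00027), where RRS1 fell. Between the treated groups, the genes with the smallest adjusted p were ZNF622, TAF1D and RPF2 on the higher side (log2 differences 1.07, 1.11 and 0.80), and UTP11L, DCAF13 and ZNRD1, a polymerase I subunit, on the lower side (−0.50, −0.35 and −0.41).

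Reads of some members can be shared with other genes. NPM1 has 45 pseudogenes named after it in GENCODE release 29 and DDX18 has 5, so their FPKM depend on how such reads were assigned. The kit does not mark strand, and exons of several members overlap genes on the opposite strand: HEATR1 overlaps LGALS8 over up to 1986 bases, TSR1 overlaps SRR over 720, NIP7 overlaps COG8 over 492, NHP2 overlaps RMND5B over 379 and NOP16 overlaps HIGD2A over 227. HIGD2A had a mean of 237 FPKM, above that of NOP16 at 140.2 FPKM, while LGALS8, SRR, COG8 and RMND5B had means of 15.5 to 21.8 FPKM. POLR1C, at 80.3 FPKM, overlaps XPO5 (59.1 FPKM) and YIPF3 (72.3 FPKM) over up to 129 bases each. On their own strand, DKC1, NOP56 and GNL3 overlap the small nucleolar RNA genes SNORA56 (70.8 FPKM), SNORA51 (47.8 FPKM) and SNORD19B (24.7 FPKM). PPAN shares exon sequence on its own strand with P2RY11 and the joint transcript PPAN-P2RY11. The part of these reads in the differences was not tested.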

How the data were processed

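PolyA RNA of 9 MOLT4 libraries was prepared with a SMARTer low-input kit, with ERCC spike-ins given in proportion to cells, per the labels' protocols. The submitters' processing notes name HISAT, Cufflinks 2.0.0 and hg19; the annotation, and how libraries were scaled to each other, is not given in the sources used here. Per its column names and values, the deposited file holds FPKM that the authors computed, with 1 column per library and 1 row per symbol (23621 genes and 92 spike-in RNAs). Columns were assigned by title.

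Differences were fitted with limma 3.58.1 in R 4.3.3 on log2(FPKM + 1), for the 12301 genes whose mean reached 1 FPKM, with 1 mean per group, a trend of variance on level, two-sided p-values and Benjamini-Hochberg adjustment over all of them. The pseudocount understates changes of low genes. The script was tested on simulated data.

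The members and lists were chosen with earlier results of these data known, so no test was made over a list. Values in every library are given for the 4 largest called rises and falls of each comparison, the most abundant member of each role and members called in opposite directions, and from the wider list means are given for the called genes with the smallest adjusted p in each direction, 3 each; a few other members were added for their role. Other settings tried were pseudocounts 0.1 and 5, filters of none and 5 FPKM, centring on the median, quantile and cyclic loess normalization, scaling to spike-ins averaging 10 FPKM or more, fits of the 6 libraries in question, blocking on replicate number, limma without trend or with robust variance, and leaving out each library. Lengths are of the coding transcript with the longest coding sequence in GENCODE release 29. The step factors came from rows under 0.6 FPKM in every library that stood above the floor in exactly 2.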

Additional observations from a re-analysis of the deposited data

How the results depend on the processing

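For libraries titled MI-389 against DMSO, the median member changed sign, to 0.069 by quantile and 0.084 by cyclic loess normalization, and ranged from −0.11 to 0.021 with libraries left out. In that comparison, 20 and 21 members were higher by quantile and loess scaling (all genes 30.2% and 33.3%), and 20 were lower with median centring (all genes 40.3%). Leaving out libraries gave 10 to 19 lower (all genes 23.2% to 33.2%). In the wider list, 83 were higher after cyclic loess (61.5%, all genes 33.3%) and 43 lower with median centring (31.9%, all genes 40.3%). For libraries titled sunitinib against DMSO, the direction of the member median held throughout, at −0.21 by quantile and −0.22 by loess scaling. There the wider list had 46 lower without a filter and 40 with the 6 compared libraries alone, 33 to 112 lower with libraries left out, and 1 higher with median centring and 6 higher by quantile and by loess scaling. Between the treated groups the 2 lower members became 1 without a filter, after cyclic loess and with the replicate block, 8 with median centring, 5 after quantile normalization and 6 with the 6 compared libraries alone, and 1 to 6 with libraries left out. In the same order, 9.04%, 32.8%, 19.3%, 39.5%, 36% and 24.2% of all genes were lower, and 15.7% to 23.4% with libraries left out. The member median there was 0.12 with median centring, and 23 of the wider list were lower. The cause of these changes was not tested. Replicate numbers are shared between groups. Deviations of same-numbered libraries had a correlation above 0.1 in 1 of 9 pairs (range −0.042 to 0.11). For 5 of 9 libraries the best correlation was with their own number. With 3 libraries per group, these values do not decide whether the numbers pair the samples. The replicate block gave 11 higher (26.2%, all genes 28%) and 11 lower members (26.2%, all genes 27.4%) for libraries titled MI-389 against DMSO. It gave 29 lower (69%, all genes 13.8%) for those titled sunitinib against DMSO, and 28 higher (66.7%, all genes 35.5%) between the treated groups.

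Sign changes under another scaling were found for these members. Median centring turned the sign of MYBBP1A (−0.052), NOP14 (−0.024) and GRWD1 (−0.041) for libraries titled MI-389 against DMSO. Quantile normalization turned the sign of NOP56 (0.11), DKC1 (0.064), NOLC1 (0.096), GNL3 (0.094), RRP9 (0.047), NOP2 (0.087), DDX18 (0.0053), NIP7 (0.013), PPAN (0.093) and NOC2L (0.056) for libraries titled MI-389 against DMSO. Cyclic loess turned the sign of NOP56 (0.18), DKC1 (0.088), GAR1 (0.0071), NPM1 (0.043), NOLC1 (0.12), GNL3 (0.12), RRP9 (0.081), NOP2 (0.11), DDX18 (0.037), NIP7 (0.036), PPAN (0.11) and NOC2L (0.076) for libraries titled MI-389 against DMSO. Cyclic loess turned the sign of NOP10 (0.0091) for libraries titled sunitinib against DMSO. Median centring turned the sign of GAR1 (−0.13), POLR1A (−0.013), NCL (−0.16), NOP2 (−0.049), NOP16 (−0.072) and DDX18 (−0.046) for libraries titled MI-389 against those titled sunitinib. Quantile normalization turned the sign of POLR1A (−0.055) and NPM1 (0.042) for libraries titled MI-389 against those titled sunitinib. Cyclic loess turned the sign of FBL (0.014), POLR1A (−0.040) and NPM1 (0.20) for libraries titled MI-389 against those titled sunitinib. With each library left out in turn, ranges of the log2 difference crossed 0 for members without a call: for libraries titled MI-389 against DMSO they were MYBBP1A −0.067 to 0.088, NOP14 −0.042 to 0.11, GRWD1 −0.038 to 0.082, RRP9 −0.14 to 0.025, NOP2 −0.11 to 0.020, PPAN −0.14 to 0.037, POLR1A −0.17 to 0.018 and NIP7 −0.055 to 0.022; for libraries titled MI-389 against those titled sunitinib they were RRP1B −0.035 to 0.021 and NCL −0.0056 to 0.027.

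Steps near the floor give at most relative depth, mixed with any scaling between libraries, so counting error could not be given.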
